A study of Homo sapiens with 6 samples.

Results

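CpG-island one-way promoters were the regions of open chromatin near CpG-rich start sites of protein-coding transcripts on a single strand. Start sites of non-coding transcripts were not considered. A peak counted as one when its centre lay within 500 bp of a protein-coding transcript's start site on chromosomes 1 to 22 or X (GENCODE release 44 on hg38), when its sequence had a GC content of at least 0.55 and a ratio of observed to expected CpG dinucleotides of at least 0.6, and when protein-coding start sites of both strands did not occur within 1000 bp of its centre. By this rule 10247 of 152800 peaks were members, or 6.71%. They belonged to 9398 genes, of which 8629 had 1 member, 695 had 2 and 74 had 3 or more, with 5 at most. The rule used sequence and annotation only and no count.

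ATAC-seq, which cuts open chromatin with the Tn5 transposase and counts the resulting fragments, had been done on A375, a BRAF-mutant human melanoma cell line. The 3 empty vector (EV) libraries came from cells with a control vector and the 3 HMGB2OE libraries from cells that stably overexpressed HMGB2, a high mobility group protein that binds and bends DNA. Both groups were A375 cells in culture carrying a lentiviral vector, so each group stood for 1 transduced population of 1 cell line, and the study describes its sequencing replicates as technical, so that p-values here measure the spread between these libraries. Counts in peaks ran from 26910189 to 45645294 in EV libraries and from 33841348 to 45243329 in HMGB2OE libraries. Values are normalized counts per peak of 502 bp, scaled by TMM, a method that centres the bulk of peaks on no change, so a change common to all peaks would not be seen. In these bulk samples fewer cells with an open site and less opening per cell cannot be told apart.

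Melanocyte lineage genes were read beside the labelled identity, each at its promoter peak with the highest count. For MITF, the master regulator of the melanocyte lineage, this peak (chr3:69739125-69739626) was a member. It held 1320 ± 111 normalized counts in EV and 1260 ± 60.4 in HMGB2OE libraries (SD, n = 3 each). Other start sites of MITF were not read, so this peak does not settle the lineage. The peak of SOX10, a neural crest factor, was CpG-poor with 859 ± 23.5 and 865 ± 31.0. No tested peak within 500 bp of a start site had PMEL, MLANA, TYR, TYRP1 or DCT, genes of pigment production, as its nearest gene. A peak nearer to the start site of another gene would have been missed. The promoter of HMGB2 itself was a member and held 1990 ± 223 counts in EV and 1970 ± 59.0 in HMGB2OE libraries (log2 fold change −0.01, standard error 0.0788, adjusted p = 0.959 by edgeR). Peaks overlapping the body of the HMGB2 gene farther downstream had log2 fold changes of 1.16 and 1.67 (adjusted p = 0.00822 and 0.000113 by edgeR). Their mean counts were low, at 28.7 and 32.0 in EV and 63.0 and 98.4 in HMGB2OE libraries. Overlap with exons was not computed. Where such a peak covers exons, reads of a vector insert and of the endogenous exons cannot be told apart.

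CpG islands are stretches in which CpG dinucleotides have escaped the loss that follows DNA methylation elsewhere in the genome. Promoters in such islands serve most housekeeping genes and many developmental regulators, usually lack a TATA box, and are typically nucleosome-depleted and open in many cell types. Those of silent developmental genes are often held by Polycomb proteins. One-way promoters produce a stable coding transcript on 1 strand, in contrast to bidirectional promoters, which serve a divergent pair of coding genes.

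Sequences of 2 members from among the largest rises, 3 of the 4 with the largest falls and the member with the highest count show how varied the class was. Each line gives the longest stretch of up to 150 bases of the peak on the upstream side that lay outside exons, from the hg38 genome, on the strand of the gene, with CpG dinucleotides in capitals.
ADAMTS19 (rise), chr5:129460148-129460297, plus strand: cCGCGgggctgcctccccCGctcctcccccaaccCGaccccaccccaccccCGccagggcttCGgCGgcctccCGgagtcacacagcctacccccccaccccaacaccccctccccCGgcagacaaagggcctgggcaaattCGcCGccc
RIPPLY2 (rise), chr6:83853210-83853359, plus strand: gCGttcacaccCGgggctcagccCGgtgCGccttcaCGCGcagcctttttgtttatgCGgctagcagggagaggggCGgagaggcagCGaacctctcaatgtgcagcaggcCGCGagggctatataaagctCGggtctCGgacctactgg
ZNF135 (fall), chr19:58059180-58059238, plus strand: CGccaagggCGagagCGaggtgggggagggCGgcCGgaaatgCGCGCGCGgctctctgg
CHODL (fall), chr21:18245482-18245631, plus strand: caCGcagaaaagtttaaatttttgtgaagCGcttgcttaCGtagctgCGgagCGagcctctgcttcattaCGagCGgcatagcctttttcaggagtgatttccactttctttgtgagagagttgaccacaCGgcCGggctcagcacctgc
HMX2 (fall), chr10:123147986-123148135, plus strand: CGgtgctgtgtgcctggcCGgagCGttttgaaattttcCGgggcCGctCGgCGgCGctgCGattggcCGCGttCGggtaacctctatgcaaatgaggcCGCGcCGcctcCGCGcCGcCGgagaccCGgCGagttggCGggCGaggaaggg
ASF1B (highest count), chr19:14136681-14136830, minus strand: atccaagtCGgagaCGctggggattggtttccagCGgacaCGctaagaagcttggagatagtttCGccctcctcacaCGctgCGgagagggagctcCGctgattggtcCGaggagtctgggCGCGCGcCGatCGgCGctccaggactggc

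Among these stretches the number of CpG dinucleotides ran from 9 in the ZNF135 and CHODL stretches to 23 in the HMX2 stretch, and GC content from 50.7% in CHODL to 76.3% in ZNF135. The ADAMTS19, RIPPLY2 and ZNF135 stretches held the word GGGCGG, the core of the GC box bound by SP and KLF factors, on one strand or the other. The RIPPLY2 stretch also held TATAAA, the TATA box. HMX2 and ASF1B held CCAAT, the word bound by NF-Y. In all, 13 words were searched.

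As a class the members were centred on their start sites. The median distance of the peak centre from the nearest start site was −16.5 bp, that is upstream, and 54.8% of centres lay within 100 bp of it. Median GC content was 69.1%, with the 10th and 90th percentiles at 60% and 77.3%, and a peak held a median of 50 CpG dinucleotides against 6 over all tested peaks. Coding sequence was present in 42.1% of members.

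Members were far more open than the average peak. Low counts removed 29 members from testing, none of which had a mean above 8.53, and left 10218 members in 9372 genes among 150117 tested peaks. Their median normalized count was 668, and the 10th and 90th percentiles were 143 and 1600. The median was 105 over all tested peaks, 185 at 4304 tested CpG-poor promoters, 928 at 1520 bidirectional promoters and 94.5 at the 133601 peaks more than 500 bp from a start site. The share of all counts in peaks that members drew was 21.6%, 21.6% and 21.2% in the EV libraries and 20.6%, 21.3% and 20.3% in the HMGB2OE libraries, and the groups overlapped. The difference was −0.727 percentage points, with SDs of 0.189 in EV and 0.507 in HMGB2OE libraries. An exact two-sided permutation test gave p = 0.2. The smallest p that 3 against 3 libraries allow is 0.1, so the test could show little.

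Words bound by transcription factors were searched on both strands of all peaks of the same length. GGGCGG was present in 90.5% of members, 34.7% of CpG-poor promoters and 21.0% of all tested peaks. CCGGAAG, bound by ETS factors, was present in 20.7% of members against 4.27% of all tested peaks, and GCATGCGC, the core of the NRF1 site, in 6.33% against 1.17%. AAGATGGCG, bound by YY1, was found in 4.14% against 0.668%, TGACGTCA, the cyclic AMP response element, in 3.58% against 0.758%, and TTTGGCGC, bound by E2F factors, in 1.39% against 0.365%. CTCGCGAG, the BoxA word of ZBTB33, was present in 2.57% of members and 0.282% of all tested peaks. These words are themselves rich in G, C or CpG, which the rule selected.

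Words with more A and T were scarcer in members than in all tested peaks, which the rule's choice of GC-rich sequence also bears on. TGAGTCA, the AP-1 word, which reads TGACTCA on the other strand, was present in 3.79% of members against 28.0% of all tested peaks and 20.3% of CpG-poor promoters. TATAAA was present in 4.35% against 27.1%, ACAAAG, bound by SOX factors, in 14% against 37.3%, and GGAATG, bound by TEAD factors, in 14.5% against 29.0%. CACGTG, the E-box of MYC and MITF, was more frequent in members, at 13.3% against 6.85%.

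Within the class, several words differed in frequency with how open a promoter was. CCAAT was present in 24.5% of the quintile of members with the lowest counts and in 63.8% of the quintile with the highest, CCGGAAG in 8.9% and 25.9%, and AAGATGGCG in 1.03% and 5.28%. GGGCGG hardly varied, at 89.5% and 92.4%. Members with CCAAT had a median count of 896 and those without it 558. A match describes the letters of a peak and shows no binding.

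The question of the comparison was whether overexpression of HMGB2 altered the openness of these promoters. A peak was called when the adjusted p-value of edgeR's quasi-likelihood test, with Benjamini–Hochberg adjustment over all tested peaks, was under 0.05 and the fold change was at least 1.5. Of the members 21 were called higher in HMGB2OE cells and 14 lower, or 0.206% and 0.137% of those tested. In the background of all tested peaks the share called was 1.87% in the higher and 1.44% in the lower direction, so calls were rarer among members than in the background. CpG-poor promoters held 48 higher and 39 lower calls (2.02% of those tested), and peaks away from start sites 2729 and 2109 (3.62%). Bidirectional promoters held 1 higher and 0 lower by edgeR (0.0658%) and 0 in either direction by DESeq2. At an unadjusted p under 0.05, 13 bidirectional promoters were higher and 322 lower. These were 0.855% and 21.2%, against 10.7% and 10.2% of all tested peaks. The split of 21 higher to 14 lower became 17 to 17 when a loess trend on mean count was removed, and single libraries changed it. The higher calls became 11 without EV replicate 2 and 13 without HMGB2OE replicate 2, and the lower calls became 5 without EV replicate 1 and 8 without HMGB2OE replicate 1 or 3.

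**Figure D1:**
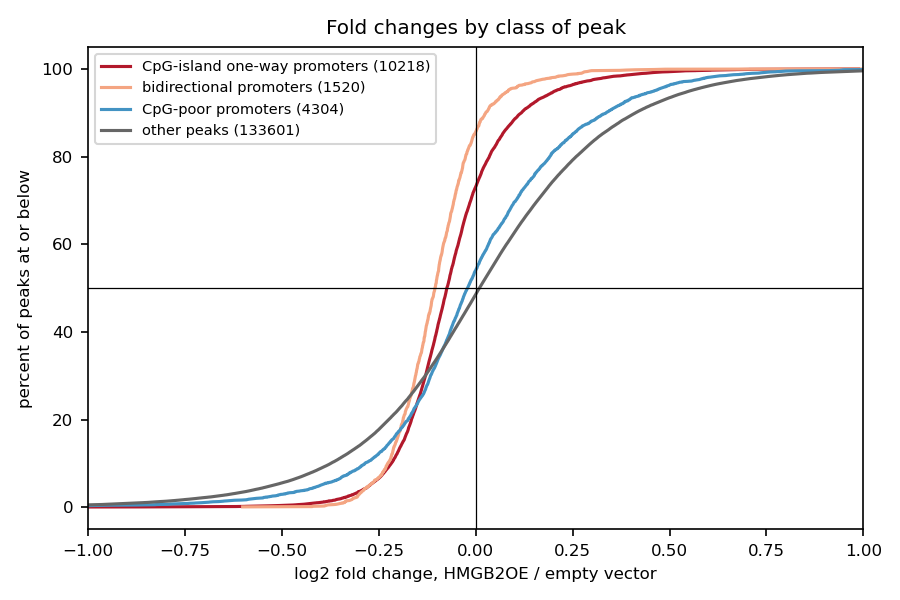
Cumulative distribution of log2 fold changes (HMGB2OE over empty vector, x axis from −1 to 1) for tested peaks of each class, in percent of peaks at or below each value on the y axis. The curves of CpG-island one-way promoters and bidirectional promoters are steeper than the others and cross 50% left of 0, at −0.0742 and −0.105, and that of CpG-poor promoters crosses it at −0.021.

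Small differences were common in one direction. The median log2 fold change of the members was −0.0742, with 5th and 95th percentiles of −0.273 and 0.206, and 73.0% of members were below 0. Over all tested peaks the median was −0.00491 and 50.8% were below 0. A fold of 1.5 was passed by 0.568% of members and by 7.27% of all tested peaks, while the median standard errors were 0.0917 and 0.172. With no fold limit an adjusted p under 0.05 was reached by 56 members with higher and 155 with lower counts (0.548% and 1.52%), against a background of 3.44% and 3.03%. The 141 of those 155 that did not reach the fold limit had a median log2 fold change of −0.341 and a median count of 593. The 35 higher ones short of it had medians of 0.443 and 250.

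Libraries of the 2 groups did not overlap at 426 members that were higher and 2147 that were lower in HMGB2OE, or 4.17% and 21.0%, against a background of 12.6% and 12.5%. These counts depended on the scaling. They became 753 and 1192 with the loess trend on mean count removed, 683 and 1551 with GC-content offsets, and 558 and 1557 with library size alone.

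The shift was also read as 1 value per library. The median deviation of members from each peak's own mean over the 6 libraries, on a log2 scale, was 0.0127, 0.0663 and 0.0247 in the EV libraries and −0.0406, 0.0052 and −0.0632 in the HMGB2OE libraries. All EV libraries lay above all HMGB2OE libraries, narrowly at the nearest pair, and the difference of −0.0674 had the smallest exact permutation p that the design allows (p = 0.1). HMGB2OE replicate 2 stood closer to the EV libraries than the other two did. Relative to CpG-poor promoters the members differed by −0.0565 (exact permutation p = 0.1), and relative to bidirectional promoters by 0.0327 (exact permutation p = 0.1). The difference from CpG-poor promoters was −0.00989 with GC-content offsets (exact permutation p = 0.3) and −0.0275 with the loess trend removed (exact permutation p = 0.4). GC content and level moved with the shift, and their part in it was not tested.

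GC content and position also divided the members among themselves. The median log2 fold change was −0.0981 among 1026 members with a GC content of 0.55 to 0.60 and −0.0178 among 1930 members of 0.75 or more, whose median counts were 715 and 463. It was −0.0803 among 5597 members centred within 100 bp of the start site and −0.0276 among 410 members centred at least 300 bp downstream, at median counts of 676 and 262. One-way promoters just outside the limit on GC, with 0.50 to 0.55 and enough CpG, numbered 383 and had a median of −0.106 with 1 higher and 0 lower call. The 443 just outside the limit on CpG, with an observed to expected ratio of 0.5 to 0.6, had a median of −0.0416 with 4 higher and 3 lower calls. The median just inside the GC limit, −0.0981, was close to the one outside it. Just inside the CpG limit, at a ratio of 0.6 to 0.7, the median was −0.0648. Over all ranges of that ratio within the class it lay between −0.0786 and −0.0648. These differences were not tested.

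The called members were all weakly open. When tested members were divided into quintiles by mean count, all 35 calls fell in the lowest quintile, which spanned normalized counts of 10 to 266. Mean counts of the called members ran from 43.6 to 257. In the other 4 quintiles 0 of 8174 members were called by edgeR or by DESeq2. At an unadjusted p under 0.05, 127 members of these quintiles were higher and 1180 lower. These were 1.55% and 14.4%, against 10.7% and 10.2% of all tested peaks and 2.96% and 13.0% of all members. Standard errors were smaller there, the median falling from 0.15 in the lowest quintile to 0.0759 in the highest. The farthest log2 fold change in either direction was 1.35 in the lowest quintile and 0.572, 0.448, 0.454 and 0.314 in the next ones. With no fold limit the 4 upper quintiles held 10, 4, 0 and 1 higher and 50, 39, 28 and 10 lower members.

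**Figure D2:**
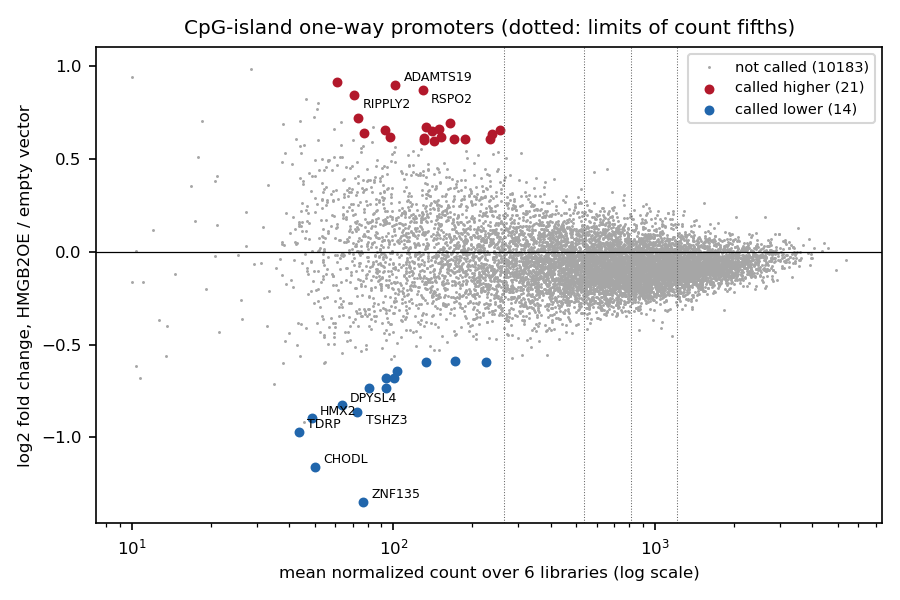
Mean normalized count over the 6 libraries (x, log scale) against log2 fold change, HMGB2OE over empty vector (y), for the 10218 tested members, with dotted lines at the limits of the quintiles. The 21 members called higher (red) and 14 called lower (blue) all lie left of the first line, and the cloud narrows to the right with its centre below 0.

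At matched counts from 50 to 800 members were called less often than CpG-poor promoters and peaks away from start sites, but not less often than bidirectional promoters. From 100 to 200 normalized counts 1.79% of members were called, against 3.03% of CpG-poor promoters and 5.10% of peaks away from start sites. From 200 to 400 the shares were 0.254%, 1.55% and 2.81%, and from 400 to 800 they were 0%, 0.294% and 1.02%. Among bidirectional promoters the share was 0% in each of these ranges (72, 121 and 400 peaks) and also from 50 to 100 counts (30 peaks), where 2.59% of members were called. Below 50 counts, where 108 members were tested, the shares of members, CpG-poor promoters and peaks away from start sites were closer, at 1.85%, 2.62% and 2.35%. The median standard errors in the range of 100 to 200 counts were 0.149, 0.152 and 0.153. These shares are descriptions and the differences between classes were not tested.

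**Figure D3:**
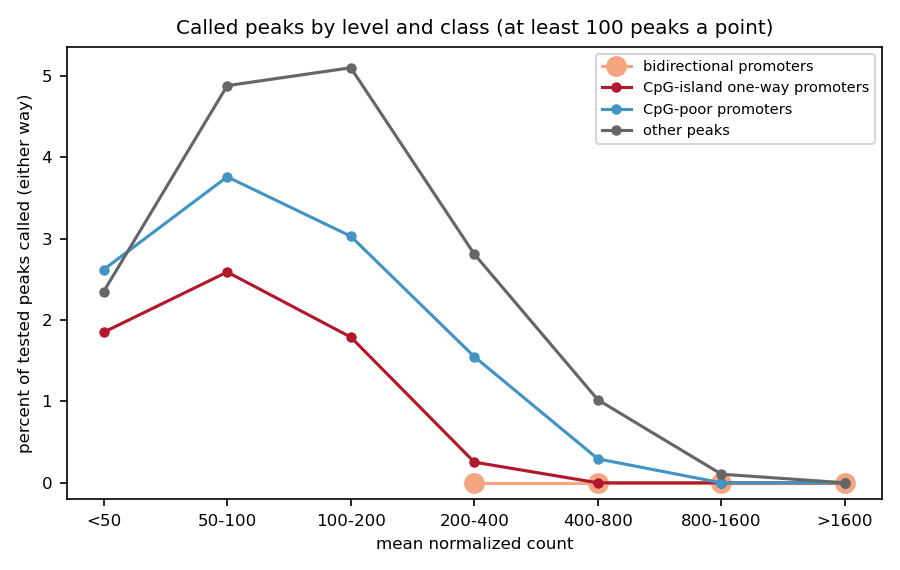
Percent of tested peaks called in either direction (y) by range of mean normalized count (x) for members, bidirectional promoters, CpG-poor promoters and other peaks, where a class held at least 100 peaks. Members lie below CpG-poor promoters and other peaks from 50 to 800 counts, with 2.59%, 1.79%, 0.254% and 0%, and bidirectional promoters lie at 0% from 200 counts on.

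ADAMTS19, a gene of the ADAMTS family of secreted metalloproteases, held 77.8, 67.1 and 69.0 counts in EV and 145.0, 124.0 and 127.0 in HMGB2OE libraries (chr5:129459894-129460395). The groups were clearly apart and the log2 fold change was 0.90 (standard error 0.168, adjusted p = 0.00133 by edgeR). Of 5 other tested peaks within 100 kb of it, 2 were called higher too, and their median log2 fold change was 0.68.

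RSPO2 encodes an R-spondin, a secreted protein that enhances Wnt signalling. Its promoter held 82.0, 72.3 and 121.0 counts in EV and 150, 153.0 and 199.0 in HMGB2OE libraries, with replicate 3 the highest in both groups and no overlap (log2 fold change 0.87, standard error 0.176, adjusted p = 0.0025 by edgeR). A second member at the same gene held 80.1 ± 15.1 counts in EV and 117.0 ± 3.29 in HMGB2OE libraries (SD, n = 3 each), and its difference of 0.53 on the log2 scale missed the threshold (adjusted p = 0.0635 by edgeR).

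RIMS2, a scaffold protein of the presynaptic active zone, had the smallest adjusted p among the rises. Its promoter held 204.0, 213.0 and 179.0 counts in EV and 332.0, 314.0 and 298.0 in HMGB2OE libraries (log2 fold change 0.66, standard error 0.118, adjusted p = 0.000832 by edgeR). The libraries of each group were close together and the groups far apart. A neighbouring member at the same start region held 230.0 ± 1.07 counts in EV and 302.0 ± 6.05 in HMGB2OE libraries (SD, n = 3 each; log2 fold change 0.39, adjusted p = 0.0336 by edgeR), past the p threshold but short of the fold limit.

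LAMA2, the alpha chain of a laminin of basement membranes, held 106.0, 108.0 and 115.0 counts in EV and 183.0, 171.0 and 161.0 in HMGB2OE libraries. All HMGB2OE libraries lay above all EV libraries (log2 fold change 0.65, standard error 0.143, adjusted p = 0.00519 by edgeR), whereas a CpG-poor promoter of the gene had a log2 fold change of −0.16 and did not pass the test. SORL1, a sorting receptor of endosomes, held 57.0, 55.1 and 53.8 in EV and 87.6, 80.9 and 107.0 in HMGB2OE libraries, the EV libraries being the tighter group (log2 fold change 0.72, adjusted p = 0.0254 by edgeR). SLC29A4, a monoamine transporter, rose by a log2 fold change of 0.67, MTUS2, a microtubule-associated protein, by 0.66, and PLXDC2, a transmembrane protein, by 0.65.

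DLX5, a homeobox factor of the craniofacial skeleton and neural crest, held 128.0, 126.0 and 124.0 counts in EV and 222.0, 183.0 and 208.0 in HMGB2OE libraries. The EV values were nearly equal and the lowest HMGB2OE library lay well above them (log2 fold change 0.69, standard error 0.136, adjusted p = 0.002 by edgeR). RIPPLY2, a corepressor of somite segmentation, held 47.3, 46.5 and 58.5 in EV and 86.7, 91.7 and 94.6 in HMGB2OE libraries, again without overlap (log2 fold change 0.84, adjusted p = 0.00998 by edgeR). FOXN4, a forkhead factor of retinal progenitors, had a log2 fold change of 0.64 with an adjusted p of 0.0474 by edgeR, the closest to the threshold among the called rises.

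The remaining called rises were named after their values were seen, apart from those of gene lists given further on. They were TMEM229A (log2 fold change 0.63), SNED1, an extracellular matrix protein (0.62), LRRN2 (0.62), TRMT9B (0.62), GABRA2, a subunit of the GABA-A receptor (0.61), DBX2, a homeobox factor of the spinal cord (0.61), and ST8SIA6, a sialyltransferase (0.60). SNED1 was the single called member whose libraries overlapped, with 103.0, 111.0 and 145.0 counts in EV and 128.0, 229.0 and 195.0 in HMGB2OE libraries. A more open member of SNED1 held 544.0 ± 31.6 and 525.0 ± 21.0 counts (SD, n = 3 each; log2 fold change −0.06).

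ZNF135, a gene of the zinc finger family of DNA-binding proteins, showed the largest fall (chr19:58059180-58059681). Its promoter held 135.0, 91.2 and 104.0 counts in EV and 47.6, 29.2 and 52.9 in HMGB2OE libraries. Every HMGB2OE library lay far below every EV library, an EV level 2.54-fold that of HMGB2OE (log2 fold change −1.35, standard error 0.224, adjusted p = 0.000381 by edgeR). A second zinc finger gene, ZNF835, also fell, by 0.59 on the log2 scale. Among all 358 tested members at genes with a ZNF symbol, a group formed after these values were seen, 0 were called higher and 2 lower by edgeR and by DESeq2, 7 and 75 passed an unadjusted p under 0.05 in those directions (1.96% and 20.9%, against 2.96% and 13.0% of all members and 10.7% and 10.2% of all tested peaks), and their median log2 fold change was −0.107. Both called ones lay on chromosome 19, where 713 members held 0 higher and 4 lower calls by both tools (5 and 171 at an unadjusted p under 0.05, or 0.701% and 24.0%) at a median of −0.113.

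CHODL encodes a membrane protein with a C-type lectin domain. Its promoter held 75, 65.4 and 67.9 counts in EV and 37.4, 26.7 and 28.1 in HMGB2OE libraries, with the groups far apart (log2 fold change −1.16, standard error 0.25, adjusted p = 0.00447 by edgeR). TDRP, a gene linked to spermatogenesis, held 62.5, 53.3 and 58.5 in EV and 40.8, 25.0 and 21.4 in HMGB2OE libraries (log2 fold change −0.97, adjusted p = 0.0331 by edgeR). A second member of TDRP within 1000 bp had a log2 fold change of −0.12 and did not pass the test.

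HMX2, a homeobox factor of the inner ear, held 61.2, 49.9 and 78.4 counts in EV and 28.9, 27.5 and 46.2 in HMGB2OE libraries, so that the groups nearly met (log2 fold change −0.90, adjusted p = 0.0429 by edgeR). TSHZ3, a teashirt zinc finger factor, held 94.5, 90.3 and 98.3 in EV and 46.8, 68.4 and 38.3 in HMGB2OE libraries, with the wider spread in HMGB2OE (log2 fold change −0.86, adjusted p = 0.0127 by edgeR). FOXA3, a forkhead factor of the liver, fell by 0.68 on the log2 scale.

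CHL1, a neural adhesion molecule of the L1 family, held 120.0, 128.0 and 125.0 counts in EV and 66.3, 89.2 and 77.7 in HMGB2OE libraries (log2 fold change −0.68, standard error 0.17, adjusted p = 0.0136 by edgeR). Its other member, centred nearby, held 127.0 ± 1.5 and 112.0 ± 11.1 (SD, n = 3 each; log2 fold change −0.18, adjusted p = 0.541 by edgeR). DPYSL4, of a family of neuronal cytosolic phosphoproteins, fell by 0.83 on the log2 scale, PYDC1, a pyrin-domain inhibitor of inflammasomes, by 0.74, WDR72, a protein of enamel formation, by 0.73, and ADM2, a peptide hormone, by 0.64. CR2, a complement receptor of B cells, named after its value was seen, fell by 0.59.

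XRCC5, which encodes the Ku80 subunit of non-homologous end joining, was the most open of the 12 largest falls. Its promoter held 325.0, 268.0 and 222.0 counts in EV and 176.0, 194.0 and 165.0 in HMGB2OE libraries, without overlap (log2 fold change −0.60, standard error 0.134, adjusted p = 0.00625 by edgeR).

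**Figure D4:**
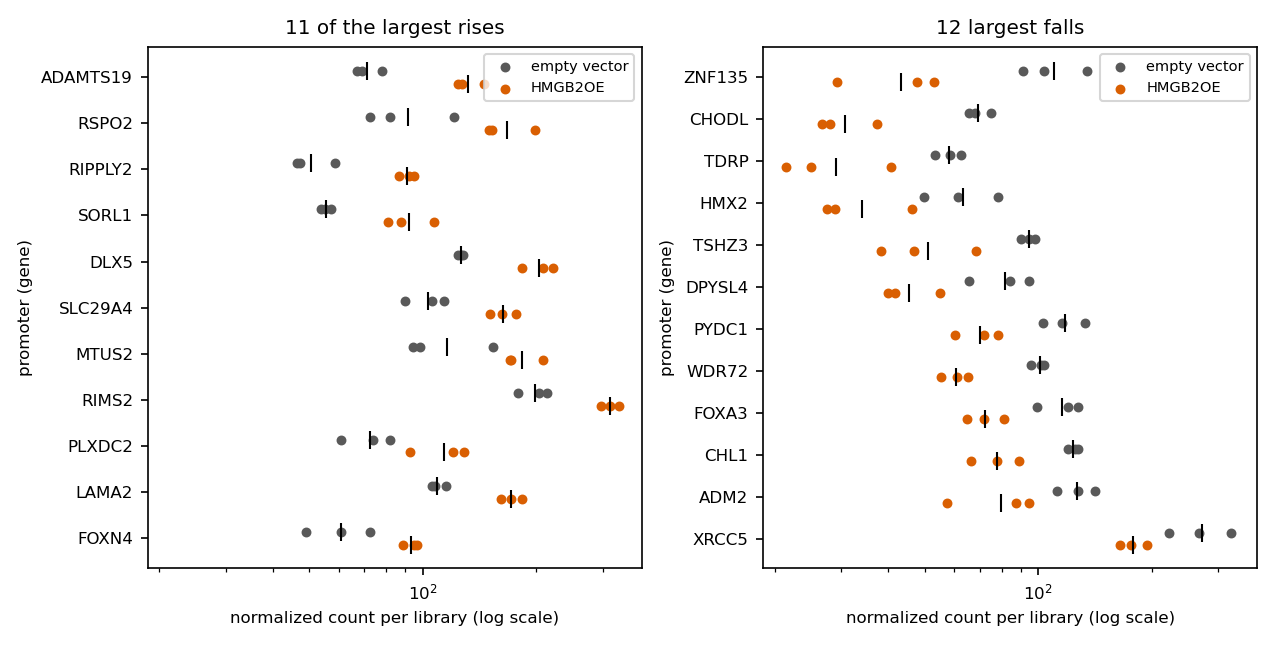
Normalized count of each library (x, log scale) at 11 of the 12 largest rises and at the 12 largest falls, with empty vector libraries in grey, HMGB2OE libraries in orange and a bar at each group mean. No pair of groups overlaps, which the choice of these members required, and the values run from 21.4 at TDRP to 332 at RIMS2.

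Of the 35 called members 8 were called in the same direction under every alternative setting of the fit and without each library in turn. Among them were the rises of ADAMTS19, RSPO2, RIMS2, DLX5 and LAMA2 and the falls of ZNF135 and CHODL. DESeq2 called 27 of the 35. In 34 of the 35 the libraries of the groups did not overlap.

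Other promoter peaks of the same genes were not called with them. Of the 35 genes 11 had another tested promoter peak, 13 peaks in all, of which 0 were called by edgeR or DESeq2. At an unadjusted p under 0.05, 4 of these peaks were higher (30.8%) and 0 lower, against 10.7% and 10.2% of all tested peaks. The sign was that of the called member at 11 of the 13. The exceptions to the sign were at LAMA2 and SNED1. In the surroundings of 100 kb, 3 of 21 rises had another peak called higher and 2 had one called lower, while 2 of 14 falls had another called lower and 2 had one called higher. Over all tested members 15.9% had a higher and 14% a lower call in such surroundings, so these shares were near those of members at large. The median log2 fold change of the neighbouring peaks was above 0 at 15 of 21 rises and below 0 at 13 of 14 falls, against 43.2% above and 56.7% below 0 over all tested members, and this was not tested. Among the stable calls named above this median was 0.68 at ADAMTS19, 0.39 at RIMS2, 0.35 at RSPO2 and 0.068 at DLX5. It was −0.77 at CHODL and −0.22 at ZNF135, and at LAMA2, a rise, it was −0.18. These medians rest on few peaks, with 2 at CHODL, 6 at ZNF135 and 11 at DLX5. ADAMTS19, RIMS2, RSPO2 and LAMA2 had 5 each.

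Word frequencies at called members were read beside those of the lowest quintile, where all of them lay. TGAGTCA occurred in 0 of 21 rises and 1 of 14 falls, GGGCGG in 18 of 21 and 14 of 14, CCGGAAG in 1 and 1, CCAAT in 7 of 21 and 1 of 14, and ACAAAG in 5 of 21 and 3 of 14. In the lowest quintile of members TGAGTCA was present in 3.28%, GGGCGG in 89.5%, CCGGAAG in 8.9%, CCAAT in 24.5% and ACAAAG in 15.3%.

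The most open members gave no call, and their libraries overlapped between the groups. ASF1B, a histone chaperone, had the highest mean count, with 5190, 5480 and 5780 in EV and 5560, 4970 and 5420 in HMGB2OE libraries (log2 fold change −0.04, standard error 0.0667, adjusted p = 0.762 by edgeR). SUCO followed with a log2 fold change of −0.10, KMT5C, a histone H4 methyltransferase, with 0.02, ING1, a chromatin reader, with 0.05, and EDEM3, a mannosidase of the endoplasmic reticulum, with 0.00. None of the 5 passed the test, and their standard errors were 0.0667 to 0.0784.

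Gene lists were read against the same background of 1.87% higher and 1.44% lower, and overlap in part. Signalling genes of the MAPK pathway, which mutant BRAF drives, are described first. The 14 members at AP-1 factors, the FOS and JUN families, had 0 calls in either direction by edgeR or DESeq2. At an unadjusted p under 0.05, 1 was higher and 1 lower (7.14% each, against 10.7% and 10.2% of all tested peaks). Their median log2 fold change was −0.0529 at a median count of 1080. JUNB was nearest to the threshold, with 2560, 2980 and 2910 counts in EV and 2710, 2340 and 2330 in HMGB2OE libraries, which overlapped (log2 fold change −0.19, adjusted p = 0.133 by edgeR). The 27 members at MAPK output genes, which report the activity of the pathway, had 0 calls by edgeR or DESeq2. At an unadjusted p under 0.05, 0 were higher and 6 lower (22.2%, against 10.2% of all tested peaks and 13.0% of all members). Their median was −0.103, with 3 above 0. SPRED2, an inhibitor of the pathway, was nearest, with 873.0 ± 68.6 and 724.0 ± 73.3 counts (SD, n = 3 each; log2 fold change −0.27, adjusted p = 0.0751 by edgeR).

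Developmental lists each held 1 called rise, and 3 of these counts changed with single libraries. At 49 members of neural crest and melanocyte transcription factors DLX5 was called, with a median of −0.0765 over the list. At 57 members of Wnt ligands, receptors and TCF/LEF factors RSPO2 was called, with a median of 0.00142. At 73 members of axon guidance genes SEMA6D was called, with a median of 0.0128 and 39 members above 0. The neural genes CHL1 and DPYSL4, both called lower, were not in that list. SEMA6D, a transmembrane semaphorin, held 208.0, 149.0 and 202.0 counts in EV and 249.0, 291.0 and 304.0 in HMGB2OE libraries, all higher than in EV (log2 fold change 0.61, standard error 0.134, adjusted p = 0.0055 by edgeR).

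At 74 members of homeobox developmental factors SIX6, a factor of eye development, was called, with 125.0, 101.0 and 117.0 counts in EV and 174.0, 183.0 and 155.0 in HMGB2OE libraries (log2 fold change 0.60, adjusted p = 0.0119 by edgeR). The groups did not overlap, and the median over the list was −0.063. This list did not hold all homeobox genes. It left out DLX5 and DBX2, which were called higher, and HMX2, which was called lower. The axon guidance count became 0 without EV replicate 2, HMGB2OE replicate 2 or HMGB2OE replicate 3, and the Wnt count became 3 without EV replicate 2. The homeobox count became 0 with the loess trend removed and without EV replicate 2 or HMGB2OE replicate 2, and 2 with the replicate block and without EV replicate 1, EV replicate 3 or HMGB2OE replicate 3, while 1 homeobox member was lower without EV replicate 2, EV replicate 3 or HMGB2OE replicate 2. The neural crest count was 1 in each of these settings. In these 4 lists 32.7% to 45.6% of members lay in the lowest quintile of counts, the range in which all calls were made, and their median counts were 294 to 387. A share of 1 in 49 to 1 in 74 members was near the background share of higher calls over all peaks. It was above the share over all members, 0.206%, and in the lowest quintile 21 of 2044 members were called higher. These shares rest on 1 call a list, and their difference was not tested.

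The lists of housekeeping genes and chromatin regulators had 0 calls by edgeR or DESeq2 and medians below 0. At an unadjusted p under 0.05 none of their members was higher, and 12 at ribosomal proteins (23.1%), 8 at the respiratory chain (23.5%), 12 at DNA replication and cell division (18.8%) and 12 at chromatin regulators (11.8%) were lower. Over all members 2.96% were higher and 13.0% lower by that measure, and over all tested peaks 10.7% and 10.2%. The 52 members at cytosolic ribosomal proteins had a median log2 fold change of −0.129, with 1 member above 0 and 1 past the adjusted p threshold. The latter was RPL36, a protein of the large subunit, with 1010, 933.0 and 920.0 counts in EV and 796.0, 816.0 and 716.0 in HMGB2OE libraries (log2 fold change −0.30, standard error 0.0853, adjusted p = 0.0319 by edgeR). All 3 HMGB2OE libraries lay below all EV libraries there, short of the fold limit.

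The 34 members at respiratory chain genes had a median of −0.102, and NDUFB6, a subunit of complex I, was nearest to the threshold with 590.0 ± 22 and 486.0 ± 34.8 counts (SD, n = 3 each; log2 fold change −0.28, adjusted p = 0.0763 by edgeR). The 64 members at DNA replication and cell division genes had a median of −0.112 with 9 above 0. CDKN1B, the p27 inhibitor of cyclin-dependent kinases, held 1300.0, 1260 and 1070 counts in EV and 940.0, 1030 and 956.0 in HMGB2OE libraries, without overlap, and was lower with no fold limit (log2 fold change −0.31, adjusted p = 0.0226 by edgeR). The 102 members at chromatin regulators had a median of −0.0875 with 25 above 0, and RING1, a Polycomb ubiquitin ligase, was nearest with 246.0 ± 21.5 and 195.0 ± 22.2 counts (SD, n = 3 each; log2 fold change −0.34, adjusted p = 0.103 by edgeR). Median counts of these 4 lists were 648 to 852, and 1.92% to 18.6% of their members lay in the lowest quintile.

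**Figure D5:**
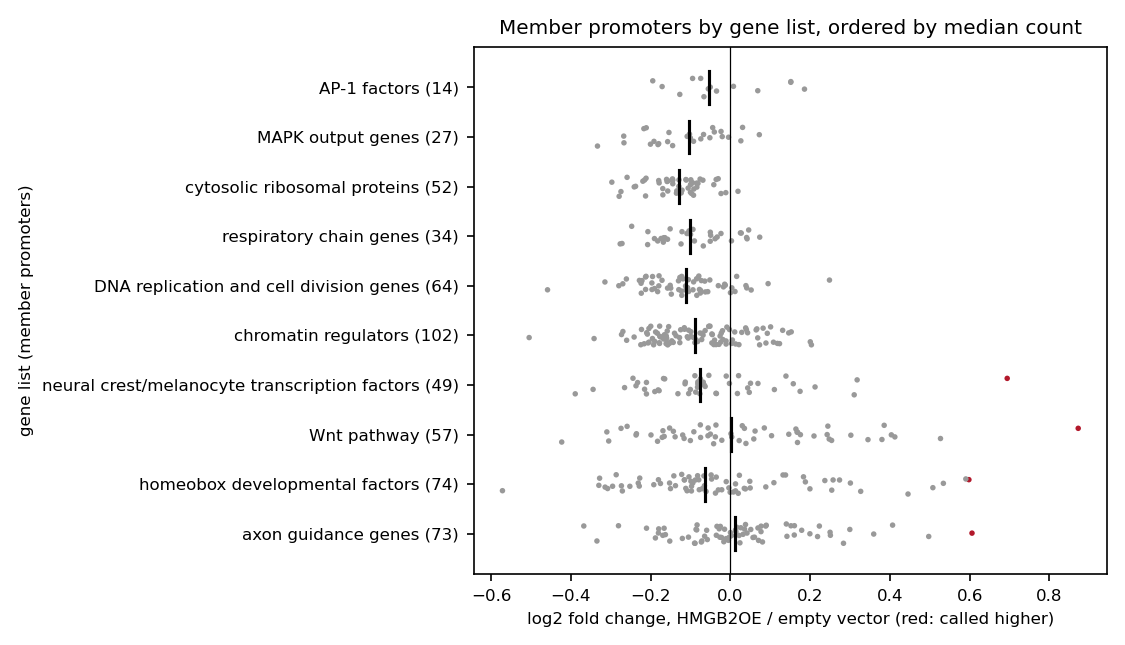
Log2 fold change (x, HMGB2OE over empty vector) of each member by gene list, lists ordered from the highest to the lowest median count, with a bar at the list median and the number of members in brackets. The 4 called members, in red, lie in the 4 lists with the lowest median counts, and medians run from −0.129 to 0.0128.

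The medians of the 10 lists can be set beside those of all members by level, which were −0.00943 in the lowest quintile of counts and −0.0696, −0.0947, −0.0917 and −0.0669 in the next ones. The lists did not follow level throughout. AP-1 factors had the highest median count and a median of −0.0529, neural crest factors one of −0.0765 at a lower count, and ribosomal proteins, at −0.129, lay below every quintile. Nothing particular to a list is drawn from its median.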

How the data were processed

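ATAC-seq counts of 3 EV and 3 HMGB2OE libraries of A375 cells were analysed. Per the submitters' processing notes and the study's methods, the authors used Trim Galore 0.6.7 and cutadapt 4.0 for trimming, Bowtie 2 for alignment to hg38, Picard against duplicates and MACS2 for peaks, with public melanocyte data as control, and deposited raw featureCounts counts per library over 1 merged set of peaks. Whether peaks were called per library, how reads with several alignments were treated and whether cut sites were shifted for Tn5 is not given in the sources used here, and each could change weak or repeated sites. Peak coordinates are as deposited.

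Counts were fitted with edgeR 4.0.16 in R 4.3.3 over all peaks (TMM, filterByExpr, quasi-likelihood test with no covariate, Benjamini–Hochberg adjustment). The study used DESeq2, here an alternative (1.42.0, Wald test). Standard errors were obtained as the fold change on the log2 scale over the root of the F statistic. Normalized counts were scaled to the mean of the TMM-scaled library sizes. Deviations per library used log2(CPM + 1), with exact permutation tests over 20 arrangements (scipy 1.17.1). The fits were also run on simulated counts with planted changes larger than that of any tested member. That run does not show how well changes of the size reported here are found. The members, the 10 gene lists and the 13 words were chosen with earlier results of these data known. Named members were, of the called ones without overlap between groups, the 12 with the greatest rise and the 12 with the greatest fall, the 5 most open members, and for each list the called members or the one with the smallest adjusted p. Sequences were shown for chromosomes other than 8. A member carries the gene of its nearest start site. 1 called member is not reported here by name. The other called members were named after their values were seen.

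Alternatives were library size alone, DESeq2's size factors, a loess trend on mean count, GC-content offsets, offsets of 5 Mb windows, the replicate block with and without GC-content offsets, no filter or at least 10 counts in every library, each library left out, fold limits of 1.25 and none, start sites within 250 bp, and stricter CpG limits (GC 0.60, observed to expected ratio 0.75).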

Additional observations from a re-analysis of the deposited data

How the results depend on the processing

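Of 21 higher and 14 lower members, the lower fold limit gave 54 and 104 and no fold limit 56 and 155. Leaving out 1 library gave 11 to 28 higher, with 11 without EV replicate 2 and 13 without HMGB2OE replicate 2, and 5 to 16 lower, with 5 without EV replicate 1 and 8 without HMGB2OE replicate 1 or 3. The stricter CpG limits gave 16 and 7, with fewer members in the class. Library size alone gave 22 and 10, DESeq2 16 and 11, 5 Mb windows 23 and 15, and the loess trend 17 and 17. Correlations between same-numbered EV and HMGB2OE libraries were −0.0884, 0.191 and 0.128, and those of differently numbered ones ran from −0.27 to 0.158. Such weak values do not settle whether replicate numbers paired the samples. The replicate block gave 23 and 16, and with GC-content offsets 26 and 16.

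The median log2 fold change of members, −0.0742, was below 0 in every setting, from −0.0942 without HMGB2OE replicate 2 to −0.0337 with the loess trend. The median over all tested peaks stayed between −0.0113 and 0.0163. No called member changed sign. Values near 0 did at the most open members. With 5 Mb windows ASF1B came to 0.027 and ING1 to −0.031, and KMT5C came to −0.0039 with GC-content offsets and −0.0001 with the replicate block added. Without each library in turn ASF1B ran from −0.08 to 0.0024, ING1 from −0.015 to 0.12, KMT5C from −0.07 to 0.097 and EDEM3 from −0.095 to 0.1. The cause was not tested. At 43.6 to 257 counts, differences under 1.5-fold could often not be shown.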
